A study of Mus musculus with 3 samples.

Results

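The Notch pathway was followed in ovulating mouse granulosa cells through 10 genes taken by name: the ligands Jag1, Jag2 and Dll4, the receptors Notch1, Notch2 and Notch3, and the target genes Hes1, Hey1, Hey2 and Heyl. All 10 were found among the 24225 genes of the deposited table, each with 1 RefSeq isoform. The 10 were chosen with earlier results of these data known. Granulosa cells are the somatic cells that enclose the oocyte in the ovarian follicle. They came from wild type C57BL/6 females of postnatal day 21 to 28. All groups had received 4 IU of equine chorionic gonadotropin (eCG), which promotes follicle growth. The 0 h library was made from cells taken before human chorionic gonadotropin (hCG), and the 4 h and 12 h libraries from cells taken 4 h and 12 h after 5 IU of hCG, which acts on the receptor of luteinizing hormone and triggers ovulation. Cells were released by puncturing follicles, so that other cells of the ovary can be among them. RNA came from 3 mice per time and there was 1 library per time; the labels do not say whether their RNA was pooled. There were therefore no replicates and no test, and each difference below is a difference between 2 libraries.

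Notch receptors are membrane proteins that are cut after they bind a Jagged or Delta-like ligand on a neighbouring cell. The last cut, by gamma-secretase, frees the intracellular domain, which enters the nucleus, joins the DNA-binding protein RBPJ and a Mastermind coactivator, and switches on genes such as the HES and HEY repressors. In the mouse ovary Notch2 in granulosa cells and Jag1 in germ cells are known for their part in breaking up germ cell nests into single follicles, while Dll4 and Notch1 are known from sprouting vessels and Notch3 from vascular smooth muscle.

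Levels are in FPKM, in which fragment counts are divided by transcript length and by library depth, so that genes can be compared with each other per length. The range in parentheses after a level is the interval deposited with it, which describes the estimate within 1 library and not the spread between mice. A log2 fold was taken on FPKM + 1, which understates the change of low genes, and a call of higher or lower required a 2-fold difference on that scale and a level of 1 FPKM or more in either library. Depth, read from the steps between low values, came to roughly 13300000, 11900000 and 11600000 fragments in time order. Of 13240 genes, 10.2% were called higher and 7.03% lower at 4 h than at 0 h, so that 59.3% of the called genes were higher. With the libraries rescaled to the mean of their FPKM sums this share was 36.7%, and the all-gene median of the log2 fold moved from -0.01 on the deposited scale to -0.29. The 8 granulosa markers listed, among them Foxl2, Fshr and Inha, were all detected, from 133 to 6986 FPKM at 0 h and from 15.5 to 7163 at 4 h.

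Promoters of 3 members are shown because these genes had the clearest time courses and represent a ligand and a receptor that peaked and a target that dipped; they were picked after their values were seen. The sequences are from RefSeq (GRCm38.p6), run 5′ to 3′ along the gene, and hold 250 bases before and 20 after the annotated start. Of the 10 genes 7 had an entry; Hes1, Hey1 and Heyl did not. Capitals mark the RBPJ motif (CGTGGGAA or TGTGGGAA) in Hey2, the short cAMP element (TGACG) in Jag1 and the GC box (GGGCGG) in Notch2. Matches on either strand are marked, and a match on the opposite strand reads as the reverse complement. The first is Jag1 at chr2:137116501-137116770, reverse strand, the next Notch2 at chr3:98013288-98013557, forward strand, and the last Hey2 at chr10:30842764-30843033, reverse strand.
Jag1: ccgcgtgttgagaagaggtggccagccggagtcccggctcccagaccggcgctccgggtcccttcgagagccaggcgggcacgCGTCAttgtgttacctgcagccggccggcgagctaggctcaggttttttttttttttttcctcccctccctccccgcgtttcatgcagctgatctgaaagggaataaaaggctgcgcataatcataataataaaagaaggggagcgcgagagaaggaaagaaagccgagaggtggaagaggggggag
Notch2: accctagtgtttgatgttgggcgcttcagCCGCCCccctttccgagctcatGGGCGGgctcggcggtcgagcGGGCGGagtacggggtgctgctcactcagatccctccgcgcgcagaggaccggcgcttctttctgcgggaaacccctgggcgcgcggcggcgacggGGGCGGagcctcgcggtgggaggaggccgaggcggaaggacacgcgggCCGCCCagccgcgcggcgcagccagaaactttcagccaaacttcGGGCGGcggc
Hey2: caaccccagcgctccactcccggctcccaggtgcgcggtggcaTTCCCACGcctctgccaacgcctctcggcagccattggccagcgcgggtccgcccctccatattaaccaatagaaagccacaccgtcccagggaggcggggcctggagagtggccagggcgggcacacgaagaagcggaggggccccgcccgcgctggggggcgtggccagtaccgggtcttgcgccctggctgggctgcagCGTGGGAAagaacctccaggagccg

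The Hey2 window held 2 matches to the RBPJ motif, both with the letters CGTGGGAA. One lay on the strand opposite to the gene, which is the forward strand of chromosome 10, at bases 30842983 to 30842990, beginning 207 bases upstream of the start. The other lay on the strand of the gene, the reverse strand of the chromosome, at 30842781 to 30842788, beginning 5 bases upstream, and so ran across the start. Either form of this motif was found in 2.26% of 32851 RefSeq promoter windows of 270 bases, and its core TGGGAA, which lies within it, in 23.1%. None of the windows of Jag1, Jag2, Dll4, Notch1, Notch2 and Notch3 held the core. The short cAMP element was found once in Jag1 and once in Notch3, against 19.4% of all windows, and the full element TGACGTCA, which contains the short one, in none of the 7. The AP-1 motif (TGACTCA or TGAGTCA), present in 4.77% of windows, was in none of the 7 either. GC boxes, present in 34.1% of windows, numbered 6 in Notch2, 5 in each of Jag2 and Notch1, 4 in Notch3, 3 in Hey2, 2 in Dll4 and 0 in Jag1. These are matches of letters in a short window, not sites shown to be bound. The Jag2 window was set on a start that lies within the gene span given below. A Jag2 box at 112929622 to 112929627 lies 132 bases upstream of that start, while the reverse-strand span ends at 112929812.

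Jag1, the ligand with the highest level before hCG, had a single sharp maximum. Its level was 2.80 FPKM (2.09 to 3.51) at 0 h, 34.9 (32.7 to 37.0) at 4 h and 2.44 (1.83 to 3.06) at 12 h. The 4 h library stood alone and the intervals of the other libraries overlapped. The level at 4 h was 12.5 times that at 0 h, with 9.34 to 17.7 as the range the deposited bounds allow, and 14.3 times that at 12 h (10.7 to 20.3). On the log2 scale of FPKM + 1 the fold was 3.24 from 0 to 4 h, rank 181 from the top among 13240 genes, and -3.38 from 4 to 12 h, rank 118 from the bottom among 13242. About 201, 2246 and 153 fragments lay behind these levels. Jag1 lies on the reverse strand of chromosome 2 at 137081451 to 137116520 (GRCm38), and the isoform counted has 26 exons and 5612 bases. Fewer cells of a type and less RNA per cell cannot be told apart in bulk samples such as these.

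Jag2, the other Jagged ligand, took another course, with no maximum at 4 h alone. It was at 1.52 FPKM (0.983 to 2.06) at 0 h, 3.15 (2.34 to 3.96) at 4 h and 3.17 (2.36 to 3.99) at 12 h. Its later levels were nearly equal and both lay above the interval of the 0 h level. The ratio to 0 h was 2.07 (1.14 to 4.03) at 4 h and 2.09 (1.15 to 4.06) at 12 h, but on the FPKM + 1 scale the log2 folds were 0.72 and 0.73, under the threshold. Jag2 passed the 2-fold rule in both comparisons with a pseudocount of 0.1 FPKM, with log2 folds of 1.01 and 1.01. It lies on the reverse strand of chromosome 12 at 112907803 to 112929812.

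Dll4, the Delta-like ligand of sprouting vessels, was barely detected. Its level was 0.139 FPKM (0 to 0.313) at 0 h, 0.568 (0.219 to 0.916) at 4 h and 0.290 (0.0437 to 0.537) at 12 h, from about 7, 24 and 12 fragments. The interval at 4 h overlapped both others, and the gene never reached 1 FPKM, so that no call was made. The deposited intervals did not resolve a difference of Dll4 between the times, and no test was made. It lies on the forward strand of chromosome 2 at 119325784 to 119335666.

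Notch2 was the main receptor transcript at each time. It was at 8.54 FPKM (7.79 to 9.30) at 0 h, 56.4 (54.4 to 58.3) at 4 h and 15.1 (14.1 to 16.2) at 12 h. No interval overlapped another, and the order was 4 h, 12 h, 0 h. The 4 h level was 6.59 times the 0 h level (5.85 to 7.48), a log2 fold of 2.59 and rank 282 from the top. From 4 to 12 h the log2 fold was -1.83, and the 12 h level remained 1.77 times that before hCG (1.52 to 2.07), a log2 fold of 0.76 that does not pass the 2-fold rule. With about 1171, 6907 and 1810 fragments on a transcript of 10500 bases, Notch2 had the largest number of fragments of the 10 genes at 4 h and at 12 h. It lies on the forward strand of chromosome 3 at 98013538 to 98150367 and has 34 exons.

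Notch1, a receptor with roles in vessels among many other tissues, followed at a lower level. It was at 0.971 FPKM (0.687 to 1.25) at 0 h, 3.70 (2.95 to 4.45) at 4 h and 1.42 (1.07 to 1.78) at 12 h. The 4 h level lay above both others, whose intervals overlapped. The ratio of 4 h to 0 h was 3.81 (2.35 to 6.48) and the log2 fold 1.25. The 4 h level was 2.60 times that at 12 h (1.66 to 4.18), but the log2 fold from 4 to 12 h was -0.96, just within the threshold; it was -1.32 with a pseudocount of 0.1 FPKM. With a pseudocount of 5 FPKM the fold from 0 to 4 h was 0.54 and no longer called. Notch1 was under 1 FPKM at 0 h and entered that comparison through its 4 h level. It lies on the reverse strand of chromosome 2 at 26457902 to 26503822.

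Notch3, the receptor of vascular smooth muscle, was at 0.561 FPKM (0.334 to 0.789), 0.648 (0.402 to 0.894) and 0.644 (0.398 to 0.890) at 0, 4 and 12 h. The 3 intervals overlapped and the level stayed under 1 FPKM, so that no call was made. The ratio of 4 h to 0 h was 1.15, and the bounds allow anything from 0.510 to 2.68. It lies on the reverse strand of chromosome 17 at 32120820 to 32166896. Notch4, the fourth mouse receptor and one found mostly in endothelium, was at 0.411, 0.471 and 0.269 FPKM with overlapping intervals.

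**Figure D1:**
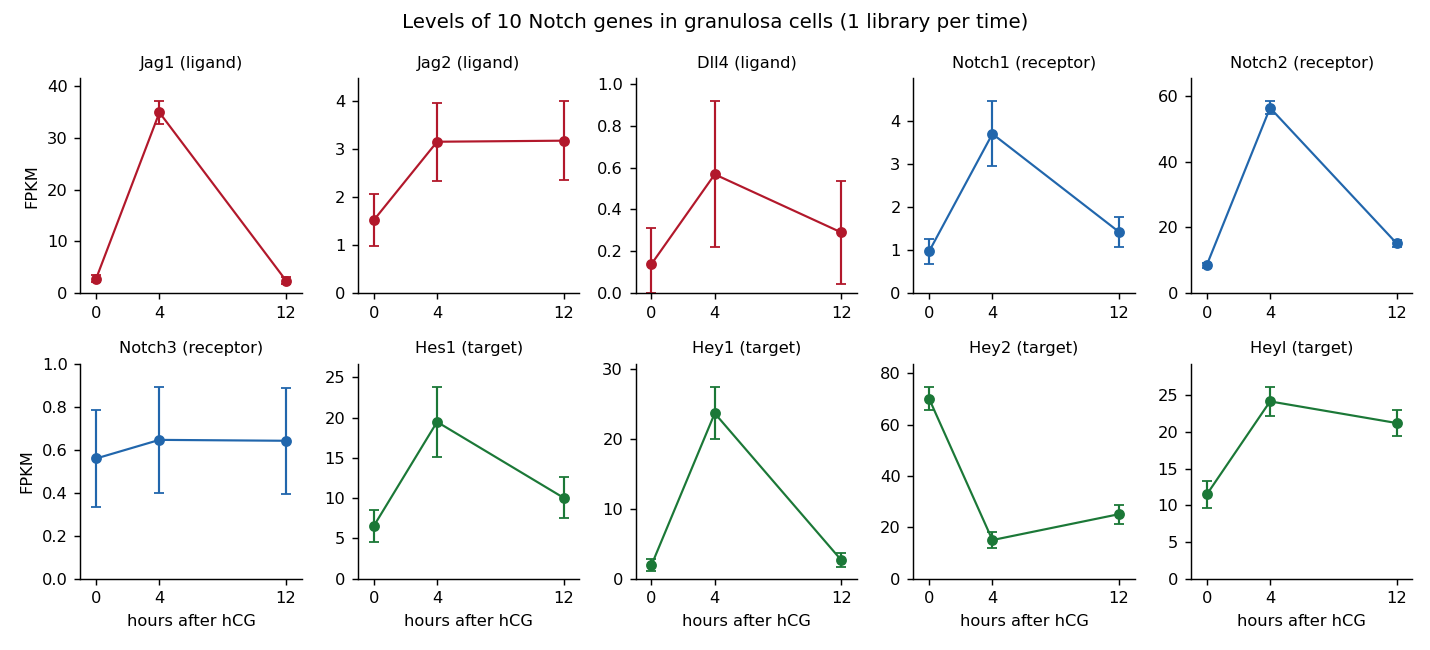
FPKM (vertical axes, each from 0 with its own scale) against hours after hCG for the 10 genes; points are the single library at each time and bars the deposited intervals. Jag1, Hey1 and Notch2 peak at 4 h (34.9, 23.6 and 56.4 FPKM), Hey2 is lowest at 4 h (15.1), and Jag2 and Heyl stay near their 4 h level at 12 h.

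The target genes encode basic helix-loop-helix repressors, and they did not move as one. Hey1 was at 1.95 FPKM (1.11 to 2.79) at 0 h, 23.6 (19.9 to 27.4) at 4 h and 2.66 (1.68 to 3.65) at 12 h. As with Jag1, the 4 h library stood alone and the other intervals overlapped. The 4 h level was 12.1 times the 0 h level (7.13 to 24.6) and 8.87 times the 12 h level (5.45 to 16.3). The log2 folds were 3.06 from 0 to 4 h (rank 206 from the top) and -2.75 from 4 to 12 h (rank 185 from the bottom). Hey1 lies on the reverse strand of chromosome 3 at 8663359 to 8667038.

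Hey2, a close relative of Hey1, went the other way. It was at 70.1 FPKM (65.6 to 74.7) at 0 h, 15.1 (12.0 to 18.1) at 4 h and 25.2 (21.4 to 28.9) at 12 h. No interval overlapped another, and the order was 0 h, 12 h, 4 h. The 0 h level was 4.65 times the 4 h level (3.62 to 6.21), and the log2 fold of -2.15 ranked 99 from the bottom among 13240 genes. The 0 h level was also 2.79 times the 12 h level (2.27 to 3.49; log2 fold -1.44). From 4 to 12 h the ratio was 1.67 (1.18 to 2.40) and the log2 fold 0.70, under the threshold; with the libraries rescaled to the mean of their sums it was 1.08 and over it. Hey2, whose promoter is printed above with its RBPJ motif matches, lies on the reverse strand of chromosome 10 at 30832359 to 30842783.

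Hes1, a classical Notch target, was at 6.55 FPKM (4.55 to 8.54) at 0 h, 19.5 (15.1 to 23.8) at 4 h and 10.05 (7.49 to 12.6) at 12 h. The 4 h level lay above both others, whose intervals overlapped. It was 2.97 times the 0 h level (1.77 to 5.22; log2 fold 1.44), and the log2 fold from 4 to 12 h was -0.89. Hes1 lies on the forward strand of chromosome 16 at 30065357 to 30067796.

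Heyl, the third HEY gene, was at 11.5 FPKM (9.70 to 13.3), 24.2 (22.2 to 26.1) and 21.2 (19.4 to 23.0) at 0, 4 and 12 h. Both later levels lay above the first and their intervals overlapped each other. The ratio to 0 h was 2.103 (1.67 to 2.69) at 4 h and 1.85 (1.46 to 2.38) at 12 h. The log2 fold of 1.01 from 0 to 4 h lay at the threshold: it was 0.9999, just short of it, with median-of-ratios scaling and 0.72 with the libraries rescaled to the mean of their sums. Heyl lies on the forward strand of chromosome 4 at 123233556 to 123249870.

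**Figure D2:**
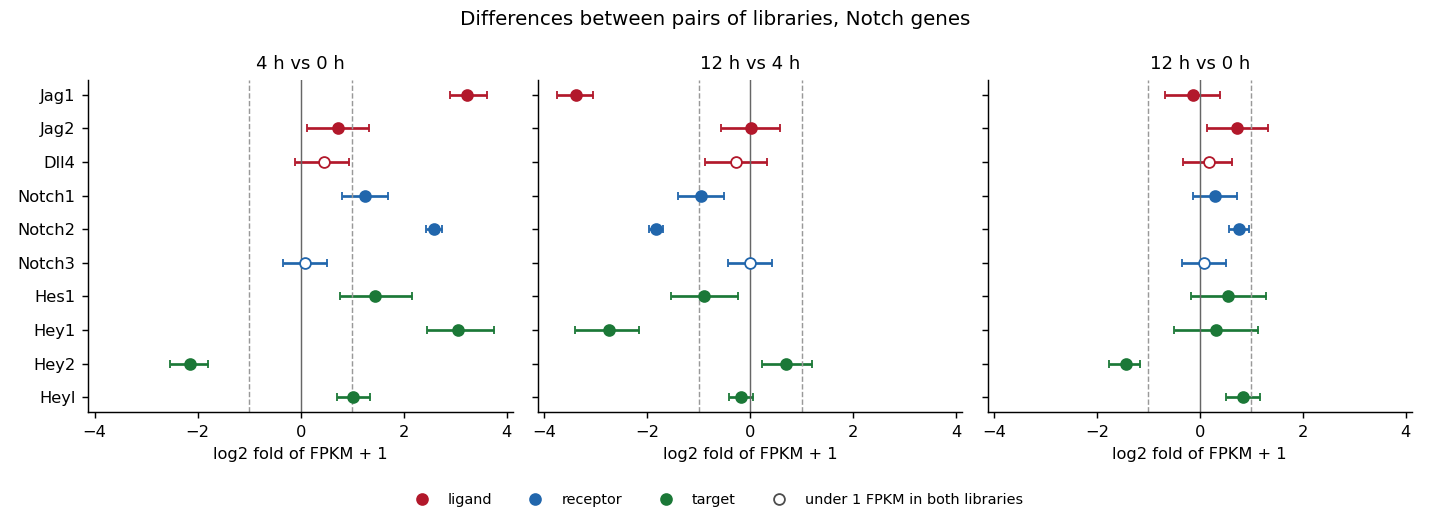
Log2 fold of FPKM + 1 (horizontal axes) for each gene in the 3 comparisons of libraries; bars span the range the deposited bounds allow, dashed lines mark 2-fold, and open points are genes under 1 FPKM in both libraries. At 4 h against 0 h Jag1 (3.24), Hey1 (3.06) and Notch2 (2.59) lie far to the right and Hey2 (-2.15) to the left, while at 12 h against 0 h only Hey2 (-1.44) is past 2-fold.

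Because FPKM is per length, the make-up of each group could be followed. Among the 4 Notch receptors, Notch2 held 81.5% of the summed level at 0 h, 92.1% at 4 h and 86.6% at 12 h, and the sum went from 10.5 to 61.2 and 17.5 FPKM. Among 5 ligands (the 3 listed, Dll1 and Dll3), Jag1 held 53.2% at 0 h, 80.1% at 4 h and 39.0% at 12 h, when Jag2 held 50.6%. The deposited bounds allow 25.3% to 56.0% for Jag1 and 34.5% to 68.1% for Jag2 at 12 h, so that their order at that time was not resolved. The summed level of the 5 ligands was 5.26, 43.6 and 6.27 FPKM.

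The shares of the 4 target genes turned over more than their total did. Their sum was 90.1, 82.3 and 59.1 FPKM at 0, 4 and 12 h. Hey2 held 77.8% of it at 0 h (72.7% to 82.9%), 18.3% at 4 h (13.5% to 24.05%) and 42.6% at 12 h (35.3% to 50.3%). Hey1 went from 2.16% to 28.7% and 4.50%, and Hes1 from 7.27% to 23.6%, with 11.9% to 22.9% allowed by the bounds at 12 h. Heyl went from 12.8% to 29.4% and 35.9%. At 4 h the ranges of Heyl, Hey1 and Hes1 overlapped, so that no one of these 3 was in the lead beyond its interval.

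**Figure D3:**
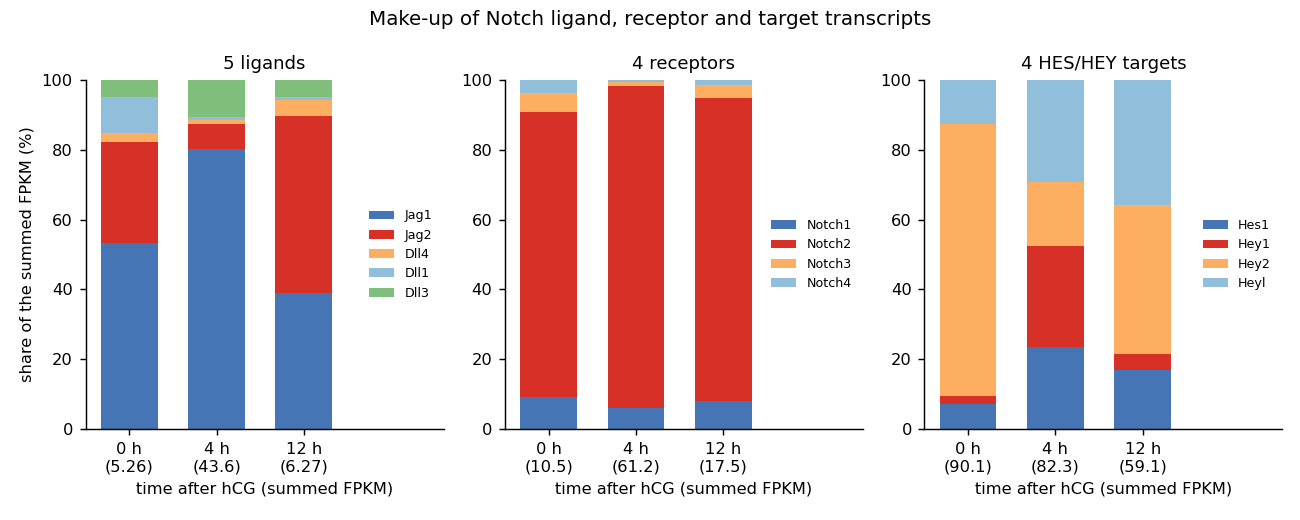
Share of the summed FPKM (vertical axis, percent) held by each gene within 5 ligands, 4 receptors and 4 HES or HEY targets at each time, with the summed FPKM in parentheses. Notch2 holds over 81% of receptor transcripts at each time, and Hey2 goes from 77.8% of the targets at 0 h to 18.3% at 4 h.

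The order of the 10 levels differed between the libraries. At 0 h it was Hey2, Heyl, Notch2, Hes1, Jag1, Hey1, Jag2, Notch1, Notch3 and Dll4; neighbours overlapped in their intervals from Notch2 to Hes1 and along the chain from Jag1 to Notch3. At 4 h Notch2 and Jag1 led, each apart from the next, followed by Heyl, Hey1, Hes1 and Hey2, whose neighbouring intervals overlapped. Notch1 and Jag2 came next and overlapped, and so did Notch3 and Dll4. At 12 h Hey2 and Heyl led with overlapping intervals, then Notch2 and Hes1 stood apart, and Jag2, Hey1 and Jag1 overlapped along the chain ahead of Notch1, Notch3 and Dll4.

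Read by comparison, 8 of the 10 genes reached 1 FPKM in at least 1 library of each pair, all but Dll4 and Notch3. From 0 to 4 h 6 genes were higher (Jag1, Hey1, Notch2, Hes1, Notch1 and Heyl), 1 was lower (Hey2) and Jag2 was within 2-fold, beside 10.2% higher and 7.03% lower of all 13240 genes. From 4 to 12 h none was higher and 3 were lower (Jag1, Hey1 and Notch2), beside 4.83% higher and 7.88% lower of 13242 genes. From 0 to 12 h none was higher and Hey2 alone was lower, beside 3.16% and 2.55% of 13026 genes. The 3 comparisons share libraries, so a high 4 h value enters the first with one sign and the second with the other. Because the 10 genes were chosen with earlier results of these data known, their counts beside the all-gene shares are a description. They are not a test of enrichment.

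The other genes of the pathway were taken from a list of 53, all in the table and likewise chosen with earlier results known. Of the 44 with at least 1 FPKM at 0 or 4 h, the 4 h level was called higher for 8 and lower for 1, with 35 within 2-fold. That is 20.5% called, against 17.3% of all genes, and their median log2 fold was 0.00. At 12 h against 4 h none of 45 was higher and 2 were lower (4.44% called, against 12.7% of all genes; median -0.21). At 12 h against 0 h 1 of 43 was higher (2.33%, against 5.7% of all genes; median -0.02).

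Among the other ligands, Dll3, a divergent Delta-like protein, was at 0.265 FPKM at 0 h, 4.65 (3.30 to 6.01) at 4 h and 0.308 at 12 h, with log2 folds of 2.16 and -2.11. Dner, a membrane protein described as a non-classical Notch ligand, was at 0.611, 5.18 (3.91 to 6.44) and 1.28 FPKM (log2 folds 1.94 and -1.44) and had the highest level of this group at 4 h. At 0 h Dlk2 was higher (1.22) and at 12 h Dlk1. Both Dll3 and Dner had their maximum at 4 h, as Jag1 did. Dlk1, which lacks the receptor-binding domain of classical ligands, was at 0.346, 2.60 and 1.42 FPKM (log2 fold 1.42 at 4 h). Dll1 was at 0.534, 0.312 and 0.0539 FPKM and never reached 1 FPKM.

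Genes of ligand endocytosis and receptor turnover held 2 higher and 1 lower of 12 at 4 h, where 10.2% of all genes were higher and 7.03% lower, so that these counts are near the background. The ubiquitin ligase Mib1, which sends ligands into endocytosis, was at 4.88 (3.68 to 6.08), 11.6 (9.34 to 13.8) and 6.56 FPKM (log2 fold 1.10 at 4 h, or 0.82 with the libraries rescaled to the mean of their sums). Neurl1b, a ligase of the Neuralized type, was at 2.03, 0.210 and 0.731 FPKM (-1.32). Dtx1, of the Deltex family, was at 0.277, 1.75 and 1.37 FPKM (1.10, or 0.95 on the rescaled libraries), and Dtx3 had the highest level of this group at 57.1, 50.4 and 54.0 FPKM. Of 5 glycosylation genes, which modify the receptors, 4 could be compared and none passed the rule at 4 h. Poglut1, the highest of them, was at 26.7, 21.6 and 33.2 FPKM.

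Of 10 genes of receptor cleavage only Furin, the convertase that cuts the receptor on its way to the surface, was higher at 4 h: 22.6 (16.9 to 29.5), 62.0 (56.5 to 67.5) and 30.6 FPKM, a log2 fold of 1.42. Ncstn, a gamma-secretase subunit and the highest of this group, was at 103, 105 and 80.7 FPKM, and the sheddases Adam10 (63.6, 59.9 and 62.6) and Adam17 (43.5, 43.0 and 43.1) were level within their intervals. The Adam17 sum was made up mainly of a non-coding isoform (28.0, 22.6 and 22.6 FPKM) and a coding one (14.6, 20.4 and 20.5). Of 9 genes of the nuclear complex the coactivator Maml2 was higher at 4 h, at 2.77 (1.804 to 3.73), 8.33 (6.59 to 10.1) and 5.35 FPKM (log2 fold 1.31), and Snw1 had the highest level, at 48.9, 48.6 and 52.8. Rbpj was at 10.1 (8.54 to 11.6), 6.70 (2.65 to 15.1) and 8.95 FPKM (7.53 to 10.4). Its 4 h estimate was spread over 3 isoforms whose lower bounds were all 0, so that its interval at 4 h spans those of the other times. Among other targets and HES genes, Bhlhe40, a repressor related to the HES family, was at 8.54, 50.3 and 27.3 FPKM, higher at 4 h (log2 fold 2.43) and still at 12 h (1.57 over 0 h). Nrarp, a feedback inhibitor that Notch induces, was at 0.379, 1.41 and 0.433 FPKM, a log2 fold of 0.81 at 4 h that passed the rule only with a pseudocount of 0.1 FPKM (1.66). Hes5 was listed at or under 0.0796 FPKM in each library, and Hes2 was listed at 0 in all 3.

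Markers of other cell types moved between these libraries too, among them types that express Notch genes. Of 12 endothelial markers, 5 of the 10 tested were higher at 4 h and none was lower (median log2 fold 1.05). Their summed level was 35.1 FPKM at 0 h, 69.7 at 4 h and 30.3 at 12 h, and single markers ranged from 0.0925 to 12.97, 0.243 to 11.04 and 0.0638 to 8.57 FPKM. The defining markers were present in each library: Pecam1 at 2.83, 5.01 and 2.83 FPKM and Cdh5 at 5.59, 10.9 and 5.98. Kdr was at 1.54, 7.92 and 1.24, a log2 fold of 1.81 at 4 h. The ratio of 4 h to 0 h of the 12 markers ran from 0.819 for Egfl7 to 6.35 for Flt1, with Pecam1 at 1.77, Cdh5 at 1.96, Kdr at 5.14 and Sox17 at 5.67. The ratio of Notch1, 3.81 (2.35 to 6.48), lay inside this range. Dll4, whose intervals overlapped, had a ratio of 4.08 with 0.700 as the lower end the bounds allow and no upper end. The part of endothelial RNA in the Notch1 result was not tested. Jag1 and Hey1 had ratios of 12.5 (9.34 to 17.7) and 12.1 (7.13 to 24.6), above the point ratios of the 12 endothelial markers. Ranges were not worked out for the marker ratios, and Sox17 started from only 0.0925 FPKM. The part of endothelial RNA in the Jag1 and Hey1 results was not tested either. Notch2, at 6.59 (5.85 to 7.48), was not resolved from Flt1, which started from 0.308 FPKM.

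Of 10 mural markers, for smooth muscle and pericytes, 3 were higher at 4 h and none lower (median 0.61; summed 127, 209 and 184 FPKM; range 0.565 to 59.8, 1.14 to 101 and 0.961 to 79.8). Beside this count and those below stand 10.2% higher and 7.03% lower of all genes at 4 h. The defining markers Myh11 (4.18, 3.64 and 5.26) and Rgs5 (1.64, 1.83 and 0.961) were within 2-fold, while Kcnj8 was at 0.565, 8.18 and 1.30. Its ratio of 14.5, given without a range, was above the point ratio of any of the 10 listed genes. On the FPKM + 1 scale the log2 fold of Kcnj8 was 2.55, under those of Jag1 (3.24), Hey1 (3.06) and Notch2 (2.59). Oocyte markers, relevant because germ cells express Jag1, were within 2-fold in all 7 cases at 4 h (median -0.27; summed 183, 152 and 258 FPKM; range 8.64 to 53.6, 6.95 to 48.2 and 11.8 to 83.8), and both Zp3 (33.1, 25.3 and 44.5) and Gdf9 (53.6, 48.2 and 83.8) were lowest at 4 h, where Jag1 was highest. Theca and stroma markers held none past 2-fold at 4 h (median 0.22; summed 214, 246 and 210; Cyp17a1 at 93.6, 114 and 59.0, Insl3 at 13.1, 7.02 and 4.02). Of the 6 leukocyte markers 1 was higher (Cd68; median of the 4 tested 0.59; summed 10.5, 29.7 and 18.4; Ptprc at 0.489, 0.489 and 0.521), and Cd3e was listed at 0 at 4 h and 12 h. Surface epithelium markers held 4 of 6 higher (median 1.19; summed 53.6, 133 and 77.3; Upk3b at 11.3, 14.0 and 10.2, Msln at 10.7, 24.9 and 13.9). Of the 8 granulosa markers 4 were lower at 4 h and none higher (median -1.003; summed 11769, 9953 and 6376). Fshr, at 133, 15.5 and 32.1 FPKM, and Foxl2, at 149, 44.3 and 102, had the same order of libraries as Hey2. So did Cyp19a1 (198, 30.0 and 105), Nr5a2 (304, 164 and 196) and Gja1 (3048, 1401 and 1585). The other granulosa markers did not: Amh was at 252, 351 and 406 FPKM, Inhba at 699, 784 and 208 and Inha at 6986, 7163 and 3742. The part of these cell types in the Notch results was not tested.

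**Figure D4:**
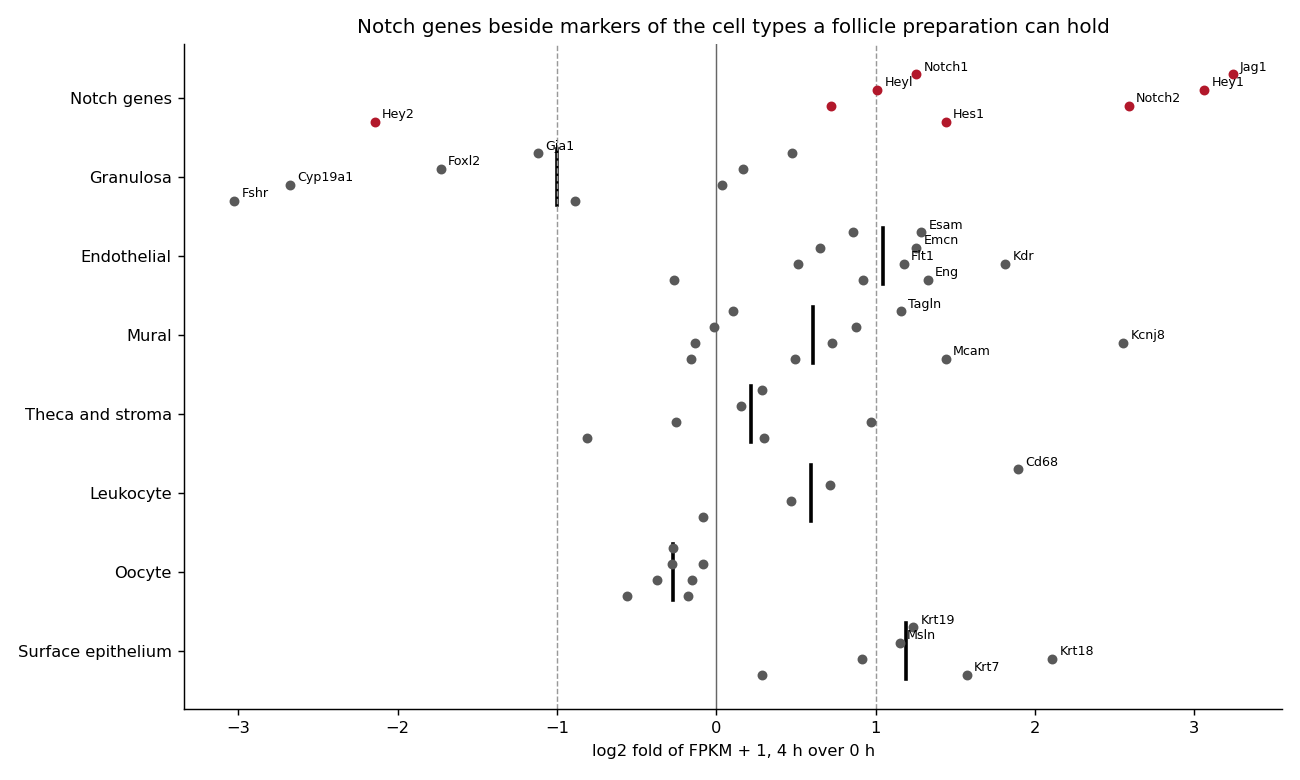
Log2 fold of FPKM + 1 from 0 to 4 h (horizontal axis) of the Notch genes (red) and of the markers of 7 cell types (grey) that reached 1 FPKM in either library; black bars are medians of the marker lists and names are given past 2-fold. Endothelial (median 1.05) and surface epithelium markers (1.19) lie to the right, oocyte markers (-0.27) near 0, and Jag1 (3.24), Hey1 (3.06) and Notch2 (2.59) to the right of Kdr (1.81), the endothelial marker with the highest fold on this scale. The mural marker Kcnj8 (2.55) lies next to Notch2. Adding 1 FPKM understates the change of low genes: Flt1 had a ratio of 6.35 but a log2 fold of 1.18.

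Genes of like course were sought among about 10049 protein-coding genes with at least 5 FPKM in 1 library, by the distance between log2(FPKM + 1) values centred over the 3 libraries. Nearest to Jag1 were Rgs1, Olfr1250 and Gpr83 (distances 0.05, 0.06 and 0.09), and only 11 genes lay within 0.25 of it. Rgs1 was at 0.131, 9.97 and 0.0754 FPKM, so its FPKM ratio of 4 h to 0 h was far larger than that of Jag1. Nearest to Hey1 were Epha4, Mgst1 and Wnt11, with 21 genes within 0.25; Epha4 was at 2.06, 23.5 and 2.72 FPKM. Nearest to Notch2 were Sertad1, Ybx1 and Rnf128 (33 genes within 0.25), and nearest to Hey2 were Rec8, Trib2 and S100a4 (11 genes). Trib2 was at 380, 80.2 and 134 FPKM. The flatter courses were common: 143 genes lay within 0.25 of Hes1 (nearest Anxa11, Nin and Enpp1), 140 of Heyl (Mef2d, Klf9 and Pdgfra) and 237 of Notch1 (Tnfrsf21, Galc and Fgfr1). Adding 1 FPKM brings genes with unlike FPKM ratios together where a level is low, as for Rgs1 beside Jag1 and Wnt11 (0.178, 9.68 and 0.428 FPKM) beside Hey1. With 3 libraries such likeness is a description only.

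Some members share exon bases with other annotated genes, and no label or header gives the strandedness of the libraries, so reads of antisense partners cannot be told apart. Notch1 shares 1068 exon bases with 0610009E02Rik and 414 with Gm13568, Notch3 488 with Gm17276 and Dll4 214 with Gm14207, all on the opposite strand, and Notch2 541 with Gm42820 on its own strand. Gm14207 was listed at 0 in each library, and the other 4 genes had no value under these symbols. No such overlap was annotated for Jag1, Jag2, Hes1, Hey1, Hey2 or Heyl.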

How the data were processed

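Granulosa cell RNA was measured at 0, 4 and 12 h. The authors deposited FPKM of 34535 RefSeq isoforms per library with a lower and an upper bound, per the file headers; the level of the interval is not stated. The submitters' processing notes list CASAVA 1.8, TopHat2 2.1.1, Cufflinks 2.2.1 and the build mm10 but give them no role. RefSeq accessions were matched to symbols of GRCm38.p6 (34169 isoforms) or through GENCODE (193); 173 had no match. FPKM were summed to 24225 genes, with isoform bounds added in quadrature. The 12 estimates marked as failed touched no listed gene. Depth was read from genes with 1 isoform over 1000 bases: with an allowance of 200 bases for fragment length, 71.1%, 70.6% and 71.8% of low values (n = 1567, 1583 and 1728) lay within 0.1 of a whole number (20% by chance). One fragment on 2 kb is then worth 0.0418, 0.0467 and 0.0479 FPKM, and intervals cover the estimate only. Calls were made on log2(FPKM + 1) with a 2-fold threshold; the steps were checked on simulated data. The members and lists were chosen with earlier results of these data known. All members were described, and of the other pathway genes those past 2-fold and the highest of each role; pathway genes named beyond this (Dll1, Adam10, Adam17, Rbpj, Nrarp, Hes2 and Hes5) were picked after their values were seen. Like genes were the 3 nearest. Alternatives were pseudocounts, filters, scalings, the main isoform, thresholds and deposited intervals that lie apart. Promoter windows were searched for exact letters on both strands. Python 3.11.15, numpy 2.4.6 and pandas 2.3.3 were used.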

Additional observations from a re-analysis of the deposited data

How the results depend on the processing

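No paired analysis was possible because each time has 1 library. No called fold of a listed gene changed sign under another pseudocount, either scaling or the main isoform. Shares of all genes called are given as background for each comparison in turn: 17.3%, 12.7% and 5.7% as reported, 23.7%, 18.8% and 9.61% with a pseudocount of 0.1 FPKM, 8.50%, 5.84% and 2.38% with 5 FPKM, 37.8%, 32.2% and 15.5% at 1.5-fold, 4.48%, 2.998% and 1.32% at 4-fold, 20.7%, 17.8% and 6.13% on libraries rescaled to the mean of their sums, 20.4%, 15.9% and 8.56% by the main isoform, and 17.3%, 12.7% and 5.16% with a filter of 5 FPKM. From 0 to 4 h 7 of 8 listed genes were past 2-fold, 4 at a 4-fold threshold, and 5 to 8 under the other alternatives. From 4 to 12 h 3 were called, 4 on rescaled libraries (1 higher, 3 lower), 4 with a pseudocount of 0.1, 6 at 1.5-fold and 2 at 4-fold. From 0 to 12 h 1 was called, 2 with a pseudocount of 0.1 FPKM, 4 at 1.5-fold and 0 at 4-fold. Of the other pathway genes 9 of 44 were called from 0 to 4 h, 14 with a pseudocount of 0.1 and 2 with 5 FPKM, 5 with a filter of 5 FPKM, 11 on rescaled libraries (6 higher, 5 lower), 12 by the main isoform, 19 at 1.5-fold and 2 at 4-fold, the last 2 counts near the shares of all genes at those thresholds. From 4 to 12 h 2 were called, against 8, 0, 1, 3, 7, 13 and 1 in the same order of settings. From 0 to 12 h 1 was called, 4 with a pseudocount of 0.1, 3 by the main isoform, 6 at 1.5-fold and 0 at 4-fold. Thresholds and filters set how many genes can pass by construction; for the rest the cause was not tested. All calls of listed genes held where the deposited intervals had to lie apart. Of the 30 folds of listed genes, 7 moved by more than the error propagated from their deposited bounds on rescaled libraries, 8 with a pseudocount of 0.1 and 9 with 5 FPKM. Over all genes the rule called 1356 higher and 931 lower from 0 to 4 h, and 1000 and 1728 on rescaled libraries; from 4 to 12 h 37.99% of called genes were higher, or 70.7% on rescaled libraries, and with a pseudocount of 5 FPKM 20.1%. Low counts limit Dll4 (about 7, 24 and 12 fragments in time order) and Notch3 (about 58, 60 and 58). Hey1 also had low counts outside 4 h, with about 58, 625 and 69 fragments.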
